A study of Homo sapiens with 7 samples.

Results

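The untreated HCT116 libraries hold the double-stranded RNA of endogenous retrovirus repeats that this human colon carcinoma line carries without drug. They are the 2 PBS libraries among the 7 of the series, chosen by their treatment label alone. Each comes from its own workbook of counts: PBS of set 1 was deposited with a 5-Aza-CdR and a Combination library, and PBS of set 2 with a Vc, a 5-Aza-CdR and a Combination library. The labels describe 0.3 µM of 5-Aza-CdR, an inhibitor of DNA methylation, with fresh medium after 24 hours and culture to day 5. They repeat this text for every library, PBS included, and state no dose of their own for Vc or Combination. PBS, phosphate-buffered saline, contains no drug. All 7 libraries share the cell line, RNase T1 digestion of single-stranded RNA, pull-down with the J2 antibody and shearing before sequencing. The titles of set 2 that repeat a treatment of set 1 carry the mark v2. Whether v2 stands for separate cultures, new libraries or new processing is not stated, so the spread between the PBS libraries may be technical. The deposited tables count repeats and no genes, so the identity of the line could not be checked against marker genes here. In bulk RNA of this kind, fewer cells that make a transcript and less of it per cell cannot be told apart.

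Endogenous retroviruses are remnants of germline infections. A full provirus has an internal region with the former viral genes (named with the ending -int) between a pair of long terminal repeats (LTRs), which hold the promoter; recombination has left most insertions as solo LTRs. J2 binds long double-stranded RNA irrespective of its sequence. Such RNA forms where both strands of a repeat are transcribed, or where a transcript contains inverted copies that fold back on each other, and inside the cell it can be sensed by MDA5 and other receptors of the antiviral response. The MaLR elements (THE1, MST and MLT1, nonautonomous relatives of ERVL) are among the most numerous LTR repeats of the human genome, with 343328 copies listed here. HERVH with its LTR7 has 9597 listed copies, and HERV9 with its LTR12 has 6387.

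The files list 703140 annotated copies in both sets, in 500 families, with 262 Mb of listed length. Family counts summed to between 11531 and 32403 reads per library, with 23131 in PBS of set 1 and 19450 in PBS of set 2. At this depth, a count of 0 allows up to 3 reads, a share of 0.0130% in PBS of set 1 and 0.0154% in PBS of set 2. Intervals of shares are Wilson 95% intervals. They and the floors cover counting error alone, because without molecular identifiers PCR copies of a molecule count as separate reads.

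At the 2 copies with the most reads in PBS of set 1, all 3 libraries of that set differed from set 2. A copy of HERVE_a-int, the internal region of a HERV-E relative, at chr6:4428317-4428782 (hg19, minus strand, 466 bases), held 106889 of the 133154 copy reads in PBS of set 1. The drug libraries of set 1 had 22762 (5-Aza-CdR) and 31334 (Combination) reads there. In set 2 the copy had 8 reads with PBS, 7 with Vc, 7 with 5-Aza-CdR and 5 with Combination. The copy was therefore high in all 3 libraries of set 1 and near the floor in all 4 of set 2. A copy of MER11B, the LTR of an HML-8 type HERVK group, at chr3:15779666-15780942 (minus strand) also held more reads in set 1, with 3239 for PBS, 4788 for 5-Aza-CdR and 5144 for Combination. In set 2 the MER11B copy had 87 reads with PBS, 54 with Vc, 90 with 5-Aza-CdR and 87 with Combination. The family counts of set 1 list HERVE_a-int at 0 and were used here without a value for MER11B, so neither copy enters the family shares of that set. Shares and levels from the copy counts are given without these 2 copies unless stated, which leaves 23026 reads in PBS of set 1 and 19358 in PBS of set 2.

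PBS of set 1 stood apart from the other 6 libraries in how its reads were spread over copies. It had reads at 6080 copies and PBS of set 2 at 11148 copies. Of the copies with reads, 39.4% had exactly 1 read in PBS of set 1, against between 70.1% and 79.7% in the other 6 libraries. The mean was 3.79 reads per copy with reads in PBS of set 1 and 1.74 in PBS of set 2. With PBS of set 1 rarefied to the 19358 reads of PBS of set 2, 5662 copies were expected to hold reads, against 11146 in the latter. How duplicate reads were handled in set 1 is not given in the sources used here. The 5-Aza-CdR and Combination libraries of the same set had 77.3% and 77.2% of their copies at 1 read.

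**Figure D1:**
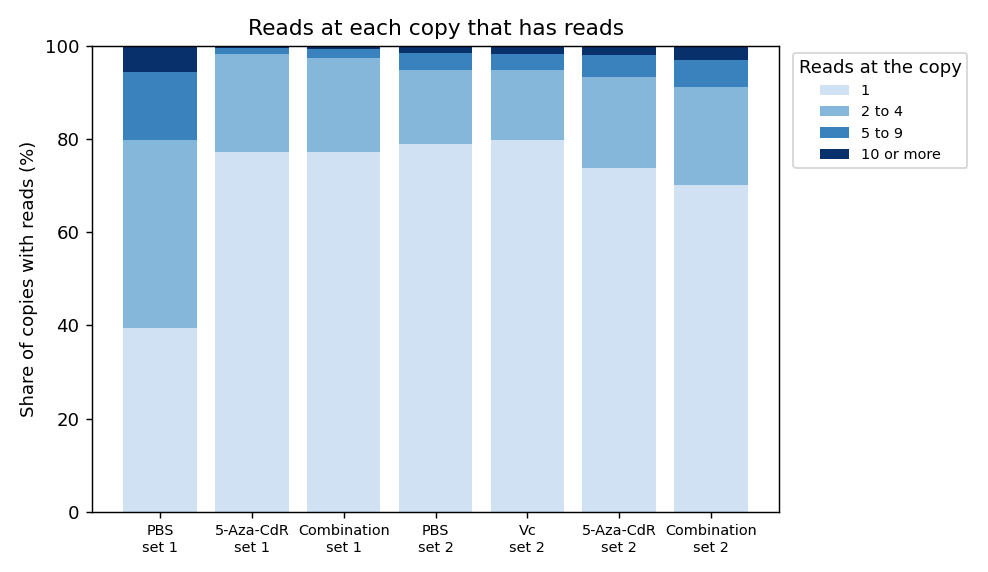
Share of copies with reads (%, y axis) by the number of reads at the copy, for each of the 7 libraries (x axis); each bar sums the 4 classes to 100%. In PBS of set 1, 39.4% of these copies had 1 read and 5.53% had 10 or more, against 79.0% and 1.58% in PBS of set 2.

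MaLR elements held the most reads in both untreated libraries. Their 79 families took 47.0% of family reads in PBS of set 1 (95% interval 46.4 to 47.7) and 39.2% in PBS of set 2 (38.5 to 39.9). These shares lie near the 42.2% of listed length that MaLR copies make up. MLT1, the oldest of the 3 branches and common to many mammals, took 27.1% and 23.0%. THE1, a primate branch, took 11.7% and 8.87%, and MST, also primate, took 8.24% and 7.37%. In the drug libraries the MaLR share ranged from 27.5% in Combination of set 2 to 35.9% in 5-Aza-CdR of set 1, and it was 40.4% in Vc.

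The HERVH group was the group with the most reads after MaLR in PBS of set 2. LTR7 and HERVH, known for activity in pluripotent cells, took 4.58% of family reads in PBS of set 1 (4.32 to 4.86) and 13.0% in PBS of set 2 (12.6 to 13.5), from 2.68% of listed length. The same group took 3.41% in 5-Aza-CdR and 3.41% in Combination of set 1. In set 2 it took 10.4% in Vc, 11.7% in 5-Aza-CdR and 9.22% in Combination. The HERVH share was thus lower in every library of set 1 than in any library of set 2.

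LTR12 and HERV9, whose LTRs respond to inhibitors of DNA methylation and histone deacetylation in other human lines, were present without drug. They took 2.60% of family reads in PBS of set 1 and 5.69% in PBS of set 2, from 2.74% of listed length. LTR5 and HERVK HML-2, the youngest HERVK group, took 0.774% and 2.19%, from 0.610% of listed length. LTR10, HERVI and MER61 took 1.67% and 2.65%. The ERVL-type MER families MER21, MER54, MER74 and MER77 took 7.05% in PBS of set 1 and 2.57% in PBS of set 2. The HERV-Fc families held 0 reads in PBS of set 1 and 1 read in PBS of set 2.

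**Figure D2:**
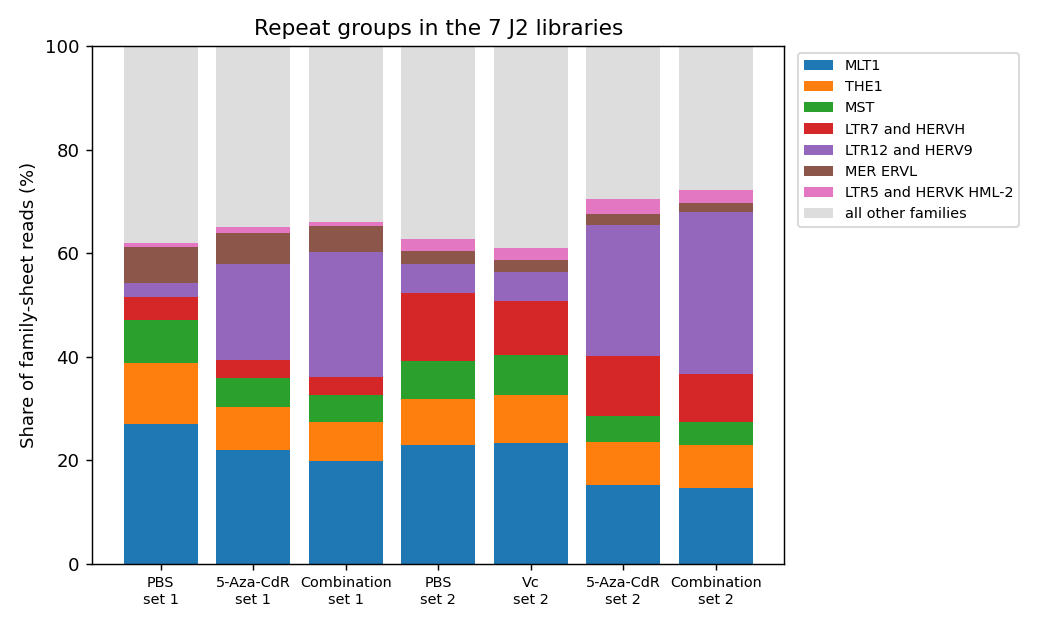
Share of family reads (%, y axis) of 7 repeat groups in each of the 7 libraries (x axis); grey stands for all other families. The PBS bars show MLT1 at 27.1% and 23.0% and LTR7 and HERVH at 4.58% and 13.0%.

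Among single families, 8 of the 12 with the most reads were the same in both PBS libraries, and the 12 held 35.2% of family reads in set 1 and 36.2% in set 2. Of the 16 families in either list, 11 had shares whose intervals did not meet. Of these, 6 had the higher share in set 1 and 5 in set 2. The 16 were chosen for high reads in a PBS library, and the same count over all families is not given here. Whether 11 of 16 is unusual was not tested. Reads were found in both libraries for 424 of the 498 families that both family tables list, in PBS of set 1 alone for 6, in PBS of set 2 alone for 45, and in neither for 23. Across 497 families, read counts of the PBS libraries had a Spearman rho of 0.78. Each library's counts had a rho of 0.79 (set 1) and 0.83 (set 2) with the listed length of the family, which both libraries share, so this likeness describes family size as well.

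HERVH-int, the HERVH internal region, ranked first in PBS of set 2 with 2324 reads, 11.9% of the library, and behind MER21C, MLT1F1 and MLT1A0 in PBS of set 1 with 832 reads, 3.60%. MLT1C (571 and 482 reads) and MSTA (650 and 515 reads) had shares with overlapping intervals, at 2.47% and 2.48% for MLT1C and 2.81% and 2.65% for MSTA. MLT1D had 585 and 623 reads, or 2.53% and 3.20%. THE1B-int, the internal region of a THE1 element, had 472 and 350 reads, or 2.04% and 1.80%. Other MaLR families with many reads differed more: MLT1A0 took 3.64% and 1.61%, THE1B 2.75% and 1.66%, and THE1D 2.66% and 1.013%.

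Several high families of PBS of set 1 owed their place to a few copies. MER21C, the LTR of an ERVL-type element, ranked first with 1069 reads, and 704 of them lay on a 73-base copy at chr1:91852713-91852785 (plus strand). That copy held 397 reads in 5-Aza-CdR and 320 in Combination of set 1. In set 2 it had 13 reads with PBS, 10 with Vc, 15 with 5-Aza-CdR and 15 with Combination. MLT1F1 ranked next with 852 reads, and 777 of them, 91.2% of the reads at its copies, lay at chr5:36221359-36221589 (plus strand), which held 45 and 23 reads in 5-Aza-CdR and Combination of set 1. In set 2 the MLT1F1 copy had 2 reads with PBS, 0 with Vc, 1 with 5-Aza-CdR and 0 with Combination. Both copies were high in PBS of set 1 and low throughout set 2. Both also held more reads in the drug libraries of set 1 than in any library of set 2.

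LTR25 gave 556 reads in PBS of set 1 and 13 in PBS of set 2. Of the set 1 reads, 270 lay at chr9:97650795-97651047 on the minus strand and 265 at chr9:97651031-97651119 on the plus strand, copies of opposite orientation that overlap. These copies held 2 and 1 reads in 5-Aza-CdR, 1 and 1 in Combination of set 1, and 0 in all 4 libraries of set 2. The LTR25 pair was high in 1 of the 7 libraries. THE1D gave 615 and 197 reads, and 234 of the former lay at chr2:186839091-186839260 (minus strand), where PBS of set 2 had 1 read.

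HERVH-int and LTR12C, the families with the most reads in PBS of set 2, were spread over more copies there. Of the HERVH-int reads, 50% lay on 130 copies in set 2 and on 23 in set 1. For LTR12C, an LTR of HERV9, 50% of the reads lay on 116 copies in set 2 and 15 in set 1. LTR12C gave 851 reads in PBS of set 2, of which 94 lay at chr10:74060187-74061778 (plus strand). That LTR12C copy held 133 reads in Vc, 101 in 5-Aza-CdR and 114 in Combination of set 2, and 0, 1 and 2 reads in PBS, 5-Aza-CdR and Combination of set 1. It was therefore high in all of set 2 and in none of set 1. Other high families of PBS of set 2 differed little or the other way: 50% of the reads lay on 34 copies in set 2 and 29 in set 1 for MLT1D, 35 and 32 for MSTA, and 14 and 21 for MLT1J. LTR5_Hs, the LTR of the youngest HML-2 proviruses, gave 274 reads in PBS of set 2 and 58 in PBS of set 1.

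**Figure D3:**
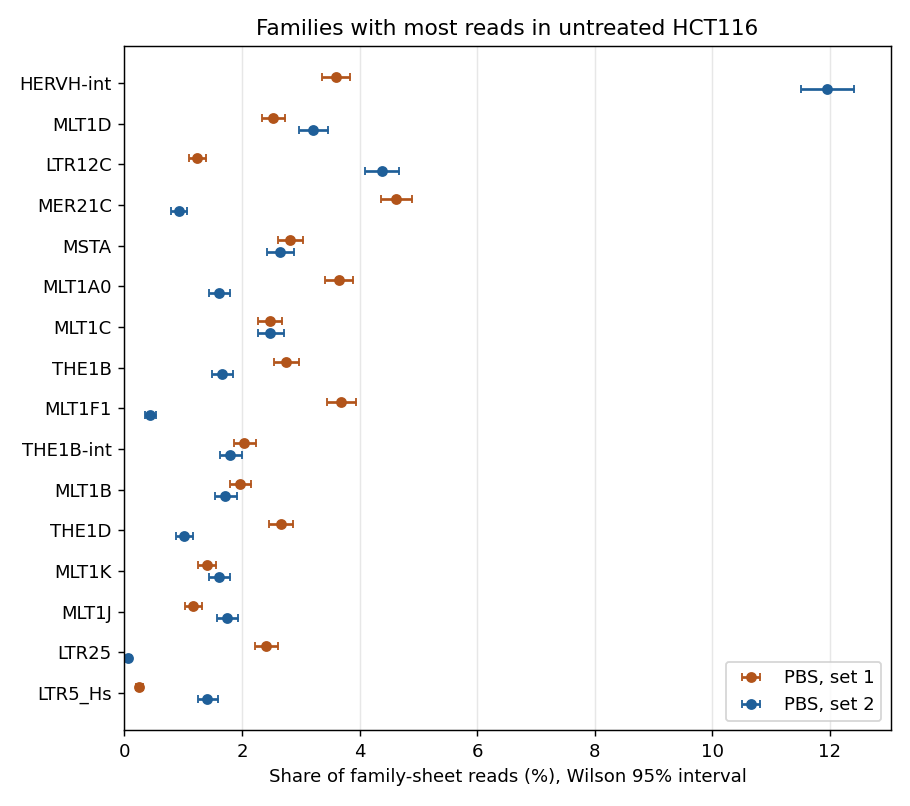
Share of family reads (%, x axis) with Wilson 95% intervals for the 16 families among the 12 highest of either PBS library (y axis), orange for set 1 and blue for set 2. HERVH-int lies at 3.60% and 11.9%, while the intervals of MLT1C and MSTA overlap.

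Reads per kb of listed length set small families beside large ones. Among the 68 families with 50 or more copy reads in both PBS libraries, the median was 0.0917 reads per kb in set 1 and 0.0755 in set 2. Of the 10 highest in each library, 6 were shared. LTR10C, the LTR of a HERVI relative known to carry p53 binding sites, had 0.565 and 0.468 reads per kb. LTR13, the LTR of HERVK13, had 0.409 and 0.344. These families held only 134 and 111 reads (LTR10C) and 157 and 132 reads (LTR13), but from 513 and 480 copies. LTR12D of HERV9 had 0.255 and 0.207 reads per kb, MER68 0.205 and 0.207, and LTR41B 0.203 and 0.196. The sixth, MER11B, had 6.39 and 0.212 reads per kb with its dominant copy counted. Without the highest copy of each, LTR10C kept 0.393 and 0.389 reads per kb and LTR13 0.350 and 0.301, while MER11B had 0.0354 and 0.0413.

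Other families were high per kb in one library. LTR5_Hs had 0.106 reads per kb in set 1 and 0.510 in set 2, HERVH-int 0.149 and 0.416, and LTR12C 0.0769 and 0.241. MLT1F1 had 0.903 in set 1 and 0.0890 in set 2, and MER21C 0.464 and 0.0779. LTR50 (0.189 and 0.0821) and MER41B (0.207 and 0.0554) were also among the 10 highest in set 1 alone. Reads per kb divide by all listed copies, silent ones included, so a family with few read-bearing copies has a low value.

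**Figure D4:**
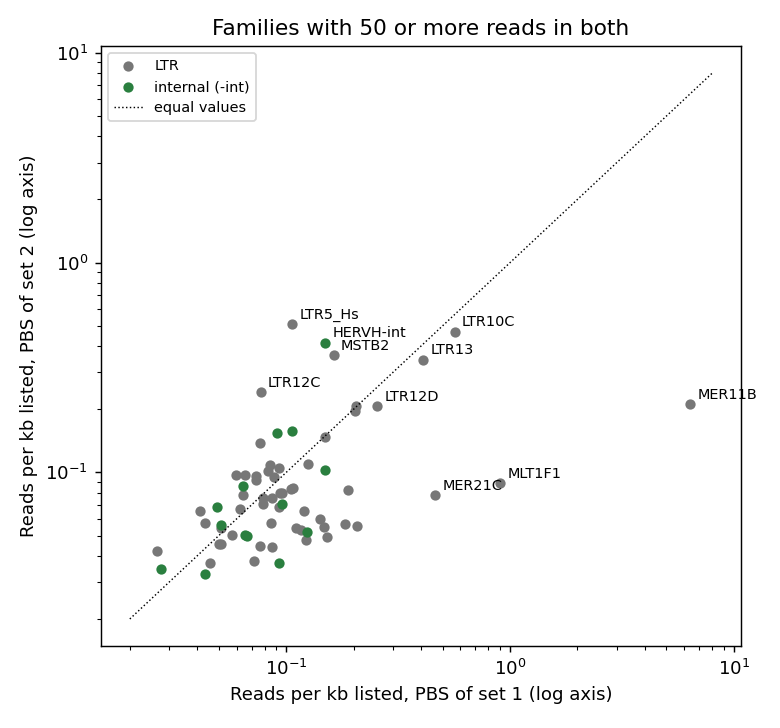
Reads per kb of listed length in PBS of set 1 (x axis, log) and set 2 (y axis, log) for 68 families, with LTR families in grey and internal regions in green; the dotted line marks equal values. LTR10C and LTR13 lie near the line, MER11B, MLT1F1 and MER21C to its right, and LTR5_Hs, HERVH-int and LTR12C above it.

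LTR families held most reads in both libraries. Internal regions make up 27.2% of listed length and 13.7% of copies. They took 21.3% of family reads in PBS of set 1 (20.7 to 21.8) and 30.0% in PBS of set 2 (29.3 to 30.6). Per kb, internal copies had 0.0685 reads and LTR copies 0.0949 in set 1, a ratio of 0.721. In set 2 the values were 0.0816 and 0.0709, a ratio of 1.15. The direction in set 2 turned with HERVH-int: without that family the ratio was 0.750 in set 2 and 0.649 in set 1. With the HERVE_a-int copy counted, internal regions took 83.9% of the copy reads in PBS of set 1 and the ratio was 13.99. Over the length of copies with reads alone, the ratios were 0.230 and 0.419. A copy with 1 read adds its whole length to this measure, so longer copies get lower values and the ratio partly follows from length. Internal copies with reads held a mean of 3.30 reads in set 1 and 2.14 in set 2. LTR copies with reads held 3.95 and 1.61. In the other libraries the internal share of family reads was 19.6% and 18.8% in 5-Aza-CdR and Combination of set 1, and 29.7%, 25.7% and 24.2% in Vc, 5-Aza-CdR and Combination of set 2.

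Reads covered a small part of the annotated repeats. Of all copies, 0.865% had a read in PBS of set 1 and 1.59% in PBS of set 2, and 97.7% had none in either. The share with reads rose with length, from 0.384% and 0.695% of copies up to 200 bases to 7.27% and 12.2% of those above 5000 bases. Reads per kb followed no such order, and were 0.160 and 0.103 in copies up to 200 bases and 0.0358 and 0.0346 above 5000 bases. LTR5_Hs had reads at 21.5% of its copies in set 2 and 5.20% in set 1, LTR12C at 19.6% and 4.10%, and HERVH-int at 14.5% and 5.88%. By chromosome, the X had 0.0408 and 0.0462 reads per kb and chromosome 13 had 0.0456 and 0.0494. Chromosome 19 had 0.150 and 0.178, and chromosome 22 had 0.130 and 0.184. The annotated strand divided the reads nearly evenly, with 52.8% and 50.2% on plus-strand copies; strand here is that of the repeat, not of the read.

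The PBS libraries shared few copies. Of those with at least 1 read, 1076 were common, 17.7% of the copies of set 1 and 9.65% of those of set 2. At 10 or more reads in each library, 38 were common, 11.3% of 336 and 21.6% of 176. PBS of set 2 and Vc shared 127 copies at that minimum, 72.2% of the PBS copies and 69.8% of the Vc copies. Within set 1, PBS shared 17 copies of 10 or more reads with 5-Aza-CdR, 5.06% of its own and 44.7% of the 38 in 5-Aza-CdR. Of the PBS set 2 copies with 10 or more reads, 95.5% had a read in Vc, 96.6% in 5-Aza-CdR and 96.6% in Combination of set 2, and 53.98% in PBS of set 1. Of those of PBS set 1, 42.9% had a read in 5-Aza-CdR and 39.6% in Combination of set 1, and 38.4% in PBS of set 2. The untreated copies of set 2 were thus found again across its treatments. Of those of PBS set 1, fewer than 50% were found in either drug library of that set. The drug libraries of set 1 shared 28 copies of 10 or more reads with each other, 73.7% of the 38 in 5-Aza-CdR and 49.1% of the 57 in Combination. Depth differed as well: without the 2 dominant copies, 5-Aza-CdR and Combination had 11477 and 14235 reads in set 1, against 23026 in PBS. In set 2 they had 23431 and 32311, against 19358 in PBS and 18434 in Vc. PBS of set 1 had more reads than Vc, but had a read at fewer of the PBS set 2 copies, 53.98% against 95.5%. How far depth or other differences between the sets account for these shares was not tested.

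Copies with 10 or more reads in either PBS library numbered 474. Of these, 207 with 10 or more reads in set 1 had 0 in set 2, and 81 with 10 or more in set 2 had 0 in set 1. By group, the read-bearing copies of LTR7 and HERVH were shared most, at 43.2% of 414 copies in set 1 and 18.2% of 982 in set 2. For THE1 the shares were 12.5% of 746 and 8.27% of 1124, and over all copies 17.7% of 6078 and 9.64% of 11146. LTR7 and HERVH also had reads at more of their listed copies, 4.31% in set 1 and 10.2% in set 2. For THE1 these were 1.27% and 1.91%. More copies are shared where more copies have reads, and sharing beyond this coverage was not tested. HERVH-int alone had 163 copies in common, 47.2% of 345 and 19.2% of 848.

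**Figure D5:**
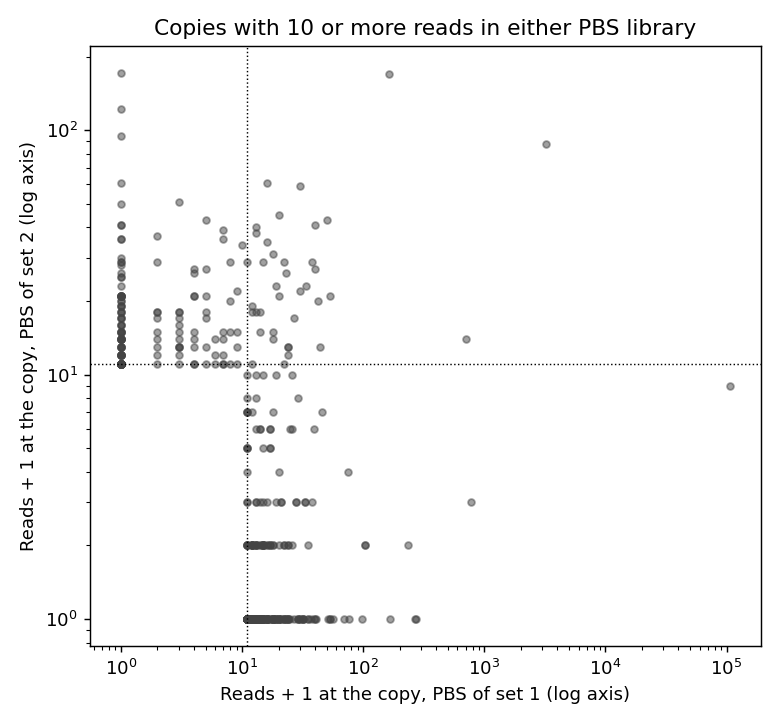
Reads plus 1 at each of 474 copies with 10 or more reads in either PBS library, set 1 on the x axis and set 2 on the y axis (both log); dotted lines mark 10 reads. The 38 shared copies lie above and to the right of the lines, and many others lie along an axis with 0 reads in the other library.

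The 38 shared copies came from 29 families, and 15 of the copies, 39.5%, were internal regions. Internal copies were 1483 of the 6080 copies with reads in PBS of set 1 and 2717 of 11148 in PBS of set 2. The median length of the shared copies was 543 bases, against 335 bases for all copies, most of which had no reads. By group, 7 were MLT1, 5 were HERVH and 5 were other HERVK groups. In Vc, 33 of the 38 had 10 or more reads. In 5-Aza-CdR of set 1, 11 had 0 reads, and in 5-Aza-CdR of set 2 none had 0. Of all 176 copies with 10 or more reads in PBS of set 2, 127 had 10 or more in Vc. A read in 5-Aza-CdR of set 2 was found at 170 of them. Of the 336 such copies in PBS of set 1, 144 had a read in 5-Aza-CdR of set 1. Whether the shared copies differ from these was not tested.

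A run of HERVH-int pieces on chromosome 1 held the copy with the most reads in both untreated libraries, ranked by the lower of its 2 counts. Its longest annotated piece, chr1:68852826-68855367 (plus strand), held 161 reads in PBS of set 1 and 169 in PBS of set 2. It held 32 and 75 reads in 5-Aza-CdR and Combination of set 1, and 109, 97 and 176 in Vc, 5-Aza-CdR and Combination of set 2. The adjoining pieces at chr1:68852123-68852829, chr1:68855347-68855496 and chr1:68855487-68855986 held 33, 19 and 49 reads in PBS of set 1 and 22, 44 and 42 in PBS of set 2. A further piece at chr1:68855989-68856651 held 11 and 18. All 5 pieces passed 10 reads in both untreated libraries, and they are neighbouring annotations of the same stretch, not separate sources.

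Copies with reads that lay within 10 kb of each other were joined into neighbourhoods, to ask whether untreated reads came from the same stretches of the genome. Of these, 112 held 20 or more reads in PBS of set 1 and 76 in PBS of set 2, and 22 did in both. The neighbourhood of the chromosome 1 HERVH pieces, chr1:68846057-68862596, held 334 and 313 reads in the PBS libraries of set 1 and set 2. The drug libraries of set 1 had 49 (5-Aza-CdR) and 101 (Combination) reads there. It held 211, 203 and 362 in Vc, 5-Aza-CdR and Combination of set 2.

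A neighbourhood on chromosome 8, chr8:23030446-23048732, held 139 and 140 reads in the PBS libraries. It contains MSTA copies of opposite orientation at chr8:23045752-23046157 (plus strand, 26 and 16 reads) and chr8:23046249-23046670 (minus strand, 39 and 40 reads), the arrangement that can fold into a hairpin if transcribed through. Its total was 3 in 5-Aza-CdR and 19 in Combination of set 1, and 133, 92 and 131 in Vc, 5-Aza-CdR and Combination of set 2. The MSTA pair was thus present without drug in both sets, and its minus-strand copy had 0 and 8 reads in the drug libraries of set 1 and 14 and 33 in those of set 2.

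A neighbourhood at chr14:20737082-20742834 held 51 reads in each PBS library and 37 in Vc. It held 0 and 2 in 5-Aza-CdR and Combination of set 1 and 10 and 10 in those of set 2, below PBS in all 4 drug libraries. The neighbourhoods were chosen for their PBS reads, and not all were lower with drug. At chr19:58817037-58826633, with HERVK3-int and LTR13, PBS held 38 and 59 reads. The drug libraries held 61 and 54 there in set 1 and 105 and 87 in set 2. At chr19:8440462-8453069, with LTR12C and LTR12D, PBS held 36 and 35 reads. There the drug libraries held fewer reads in set 1, at 13 and 32, and more in set 2, at 176 and 220. These are counts, and the libraries differ in depth. In the chromosome 14 neighbourhood, a plus-strand THE1C-int copy and a minus-strand MSTB-int copy are listed. At chr19:15939548-15951199, with HERVH-int and LTR10C, PBS held 59 and 139 reads; at chr19:45165235-45169280, with MER77 and MLT1L, it held 58 and 52.

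Other untreated sources belonged to 1 set. At chr5:860625-868943 PBS of set 2 held 293 reads and Vc 295, 5-Aza-CdR and Combination of set 2 held 38 and 35, and set 1 had 0 with PBS, 2 with 5-Aza-CdR and 0 with Combination. Most of these lay on an MSTB2 copy (chr5:862748-862918, 170 reads in PBS of set 2) and an MLT1A1 copy (chr5:860625-860972, 121 reads). At chr2:186836651-186845144 PBS of set 1 held 272 reads, 5-Aza-CdR and Combination of set 1 held 4 and 6, and PBS of set 2 held 1. An ERV3-16A3_I-int copy at chr2:133228935-133233328 held 165 reads in PBS of set 1, 3 and 6 in the drug libraries of that set, and 0 in all of set 2.

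Adjacent listed copies of the same family in opposite orientation, at most 1000 bases apart, had 0.680 reads per kb in PBS of set 1, and 0.424 without the LTR25 family. All copies had 0.0877, and 0.0857 without LTR25. In PBS of set 2 the values were 0.0952 and 0.0738, and adjacent copies of the same orientation had 0.0917 (0.0993 in set 1). The inverted neighbours were thus high in 1 library, and 1421 reads at 161 copies carried that value.

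Some copies of a family had the same listed length and close counts; their sequences were not compared here, so whether they share reads was not tested. MLT1B copies of 209 bases at chrX:151877862-151878070 and chrX:151927411-151927619 held 20 and 20 reads in PBS of set 2 and 28 and 28 in Vc. MSTA copies of 384 bases at chr7:101982409-101982792 and chr7:102207365-102207748 held 20 and 19 reads in PBS of set 2 and 0 and 7 in PBS of set 1. LTR5_Hs had its highest copies of PBS set 2 on chromosome 1, each 973 bases long, with 36, 20 and 14 reads. The placing of reads with several matching copies is not given in the sources used here.

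The untreated libraries were compared with the mean of 5-Aza-CdR and Combination in a joint fit of all 7 libraries with terms for treatment and set. It asks which families differ between untreated and drug-treated cells beyond the spread within the fit. Of 351 families tested with edgeR's quasi-likelihood test and Benjamini-Hochberg adjustment at 0.05, 9 passed, 2.56% of those tested. Among the 24 named families tested, 2 passed, 1 in each direction. The named families were chosen for high reads or reads per kb in a PBS library, and the fit compares these same PBS counts. The choice favours values higher in PBS, so the count says nothing about the named families as a set. MSTB2, an MST-type LTR, was higher without drug, with 86 PBS, 20 5-Aza-CdR and 23 Combination reads in set 1, and 191, 41 and 52 in those of set 2. Vc held 202. The PBS share exceeded that of both drug libraries in each set, with a log2 difference of 1.66 (SE 0.30, edgeR adjusted p = 0.00847). The families higher in PBS were 0.57% of those tested.

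Different copies carried the MSTB2 reads in the 2 sets. In PBS of set 1, 52 reads, 60.5% of those at MSTB2 copies, lay at chr2:159941587-159941898 (plus strand), which held 1 and 3 reads in the drug libraries of that set and 0 in all of set 2. In PBS of set 2, 89.0% lay on the chromosome 5 copy above, which held 0 reads in all of set 1. The MSTB2 call ended without the term for set (edgeR adjusted p = 0.184), without 5-Aza-CdR of set 1 (0.107) and without 5-Aza-CdR of set 2 (0.247). The log2 differences in these fits were 1.75, 1.69 and 1.56.

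LTR4 was the other family higher in PBS, and is named here after its values were seen. It had 32, 0 and 3 reads in PBS, 5-Aza-CdR and Combination of set 1 and 6, 0 and 1 in those of set 2, with 4 in Vc, a log2 difference of 4.68 (95% interval 2.44 to 6.93, edgeR adjusted p = 0.0367). In PBS of set 1, 18 of its reads lay on 1 copy. The call was lost in the fits without the set term (adjusted p = 0.239), without 5-Aza-CdR of set 1 (0.387) or set 2 (0.103), without Combination of set 1 (0.249), and from the copy counts summed per family (0.0717).

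The named family lower in PBS was LTR12C, with 286 reads against 1807 and 2926 in 5-Aza-CdR and Combination of set 1, and 851 against 5130 and 8655 in set 2. Vc held 786. The log2 difference was -3.37 (SE 0.49, 95% interval -4.45 to -2.29, edgeR adjusted p = 0.00247). The call ended without the set term (log2 difference -3.20, adjusted p = 0.260) and without 5-Aza-CdR of set 2 (-3.43, adjusted p = 0.120), with differences about as large. Families lower in PBS were 1.99% of those tested: besides LTR12C they were LTR12, LTR12E, LTR12_, LTR48B, HERV-Fc1-int and HERV-Fc2-int. No family of THE1 (9 tested) or MLT1 (42 tested) passed in either direction, and 1 of 12 MST families did; the median log2 differences were 0.05, 0.14 and 0.26, beside 0.09 over all families.

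Leaving out a PBS library changed the number of calls most. Without PBS of set 2, where PBS of set 1 stood alone for untreated cells, 87 families passed, 43 higher and 44 lower in PBS. Without PBS of set 1, 22 passed, 5 higher and 17 lower. With 1 PBS library left, its spread is assumed to equal that of the other groups. Without 5-Aza-CdR of set 2, 1 family passed, and without Combination of set 2, 16 did. With library totals in place of the trimmed mean, 9 families were higher and 9 lower, against 2 and 7, and the median difference over all families moved from 0.09 to 0.34.

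The term for set in the same fit measures how far the workbooks differ over PBS, 5-Aza-CdR and Combination together. It passed for 27 of 351 families, 7.69%, with 5.13% higher in set 2 and 2.56% lower. With library totals the split was 16 higher and 24 lower against 18 and 9, and the median difference moved from 0.05 to -0.25. Of the 24 named families, 4 passed. The 24 were chosen for high reads or reads per kb in a PBS library, and the term uses these same counts. The choice favours differences between sets, so this count says nothing about the named families as a set. HERVH-int was higher in set 2 by 2.23 (SE 0.35, edgeR adjusted p = 0.00231) and LTR5_Hs by 3.00 (SE 0.29, adjusted p = 0.000183) on the log2 scale. LTR5_Hs gave 58, 44 and 40 reads in PBS, 5-Aza-CdR and Combination of set 1 and 274, 588 and 657 in those of set 2, so its groups did not overlap between sets.

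MER21C and MLT1F1 were lower in set 2, by log2 differences of -1.90 (SE 0.28, edgeR adjusted p = 0.00200) and -1.74 (SE 0.40, adjusted p = 0.0228). In PBS of set 1, 66.0% of the reads at MER21C copies and 91.2% of those at MLT1F1 copies lay on the single copies named above. Without 5-Aza-CdR of set 1 the adjusted p was 0.171 for HERVH-int, 0.0532 for MER21C and 0.100 for MLT1F1, and without 5-Aza-CdR of set 2 it was 0.218, 0.114 and 0.195. From the copy counts summed per family it was 0.0945 for MLT1F1. The LTR5_Hs call held in each fit run. Culture, library preparation and the authors' processing could differ between the workbooks and cannot be told apart by this term.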

How the data were processed

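RNA bound by the J2 antibody was sequenced from 7 HCT116 libraries. The authors deposited raw read counts per repeat family and per annotated copy, per the file headers; hg19 and, for set 2, Bowtie2 and Picard are named in the submitters' processing notes. The title of the set 2 workbook refers to marking of duplicates; whether they were removed, how set 1 was aligned, what counted the reads and the placing of reads with several matches are not given in the sources used here. A further deposited sheet, scaled by tRNA reads, was not used.

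Copies were matched between sets by family, position and strand; 8975 copies listed only in set 1 were left out of copy comparisons. Coordinates are 1-based, and length counts both the start and the end base. In set 1, 496 of 499 families had equal family and copy counts. HERVE_a-int and MER11B were left out of the joint fit, as set 1 lacks usable family counts for them. Libraries were grouped by treatment label. The fit (edgeR 4.0.16, R 4.3.3) used trimmed-mean normalisation, edgeR's default filter, and treatment and set as terms, Vc being a level of its own. The biological coefficient of variation was 0.304, with 2 residual and 8.85 prior degrees of freedom. The fit was first run on simulated data with less spread and no difference between sets, an easier setting than these data. Alternatives were DESeq2 1.42.0, library totals, no filter, no set term, leaving out libraries, and other read minimums.

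Named families were the 12 with most reads in each PBS library and the 10 highest per kb in each; named copies were the 10 with most reads in each and the 10 highest by the lower of their PBS values as shares of copy reads, with the highest copies of named families and of neighbourhoods added later. Members and lists were chosen with earlier results of these data known.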

Additional observations from a re-analysis of the deposited data

Results flagged for a closer look

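The copy tables of set 1 list 8975 copies that those of set 2 do not, all on alternate or unplaced contigs. PBS of set 1 held 125 reads there, at 62 copies, above the 3 reads that a count of 0 allows. They entered no copy comparison.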

How the results depend on the processing

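For PBS against the drug groups, 9 families passed in the fit as reported. The count was 12 with DESeq2, 18 with library totals, 18 without the filter and 2 without the set term, and leaving out 1 library gave 1 to 87. For set 2 against set 1, 27 passed, and leaving out 1 library gave 8 to 79; the other alternatives gave 20 to 40. The cause was not tested. From the copy counts with all copies, the MaLR share was 8.15% and the HERVH-int share 0.625% in PBS of set 1, and the internal share 83.9%, since the HERVE_a-int copy holds most reads. Without the highest copy of each family, MaLR shares were 52.1% and 40.5% and HERVH-int shares 4.10% and 13.5% in sets 1 and 2. Without the 10 highest copies, the internal share of set 1 was 22.4% and its ratio per kb 0.773. The internal to LTR ratio was 13.99 in set 1 with the dominant copies, 0.230 and 0.419 over copies with reads, and 0.649 and 0.750 without HERVH-int, where the value of set 2 passed from above to below 1. Shared copies fell from 1076 to 368, 102 and 38 at 2, 5 and 10 reads. Settings without the dominant copies, without HERVH-int, with summed copy counts, and the 2 kb gap for neighbourhoods (19 in place of 22) were chosen after seeing the data. The set term acts as the replicate block, since numbers 1 and 2 stand for the workbooks. In the 6 libraries other than PBS of set 1, most copies with reads had 1 read, so for copies at or under 3 reads a difference between libraries was not detectable at this depth.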
